A study of Homo sapiens with 6 samples.

Results

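The BCR-ABL1, STAT5 and PIM kinase axis was followed through 10 genes in K562 cells, an established line from chronic myeloid leukaemia. The genes were BCR and ABL1, which are the partners of the driver fusion of this line, the transcription factor genes STAT5A and STAT5B, the kinase genes PIM1, PIM2 and PIM3, and the STAT5 target genes SOCS2, CISH and BCL2L1. They were taken by their NCBI Gene identifiers, and all 10 were found among the 25702 identifiers in the count tables and among the 15431 genes tested. The cells had been nucleofected with a pCMV-HA expression plasmid that held no insert (EV), wild-type MXD3 or a fusion of STIM1 to MXD3 (STIM1::MXD3). There were 2 poly A-enriched libraries for each of these 3 groups, with no further treatment. The study calls repeats independent transfections, while the labels give no separate cultures, so the p-values measure only the spread between these libraries. The plasmids were expressed transiently and the cells were not stated to have been sorted, so a library may mix cells with and without plasmid. The time of RNA harvest was not given separately for these libraries.

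BCR::ABL1 is a constitutively active tyrosine kinase that arises from the Philadelphia chromosome. In chronic myeloid leukaemia it leads to phosphorylation of STAT5A and STAT5B, which then dimerise, enter the nucleus and bind target genes. PIM kinases are serine/threonine kinases that need no activating phosphorylation, so that their activity depends largely on how much of them is made. CISH and SOCS2 are feedback inhibitors of cytokine receptor signalling, and BCL2L1 encodes the survival protein BCL-XL. MXD3 belongs to the MXD proteins, which dimerise with MAX, repress transcription at E-boxes and oppose MYC. Counts per gene report RNA only. They do not tell phosphorylated from unphosphorylated STAT5, nor reads of the BCR::ABL1 fusion from reads of unrearranged BCR or ABL1.

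The libraries held between 53048343 and 63835779 counts, with 17375 to 17836 genes detected. Levels are given in CPM, which is the count of a gene relative to the scaled total of its library. The plasmids were seen in the labelled libraries, since MXD3, which was at 9.33 and 11.7 CPM in EV, reached 2524 and 2162 CPM in MXD3 and 1975 and 1849 CPM in STIM1::MXD3. STIM1 lay at 159 to 205 CPM in the EV and MXD3 libraries and at 471 and 453 CPM in STIM1::MXD3. Erythroid genes that mark K562 were high in all 6 libraries, with GATA1 at 239.8 to 320.2 CPM, HBE1 at 3549 to 4698 CPM and the summed level of 12 markers at 7224 to 10042 CPM, although CD36 did not exceed 0.43 CPM. Summed markers of monocytes and granulocytes stayed under 0.68 CPM, those of B cells at 1.22 to 2.10 CPM and those of T cells at 14.2 to 21.3 CPM, nearly all of it CD3D, while MS4A1, S100A12 and KRT5 were at 0 and EPCAM was at 77.9 to 100.5 CPM.

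Per transcript length, PIM1 stood far above the other members. Its RPKM (CPM per kilobase of the canonical transcript) had a mean of 703 ± 264 (SD, n = 6) and ranked 82 of 14054 genes with a length. BCL2L1 followed at 80.7 ± 10.5 RPKM, so that the mean of PIM1 was 8.71-fold higher, and the lowest PIM1 library, at 396 RPKM, was above the highest BCL2L1 library, at 94.0 RPKM. STAT5A had 78.8 ± 12.6 RPKM, ABL1 78.0 ± 7.37, STAT5B 70.2 ± 3.17, PIM3 66.9 ± 17.5 and PIM2 61.1 ± 15.6. At the foot of the order were SOCS2 with 44.8 ± 4.08 RPKM, CISH with 39.9 ± 6.58 and BCR with 35.6 ± 3.38. Apart from PIM1 and BCL2L1, the ranges of all neighbours in this order overlapped. ABL1 was nevertheless above STAT5B in 6 of 6 libraries, and PIM2 above SOCS2 in 5 of 6. From BCR to PIM1 the mean RPKM spanned 19.7-fold. The order depends on the length used: over the merged exons of all transcripts PIM1 had 627 RPKM, PIM3 63.95, ABL1 62.2, BCL2L1 49.5, STAT5A 46.5, PIM2 45.9, STAT5B 29.5, BCR 19.7, SOCS2 16.5 and CISH 15.9.

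**Figure D1:**
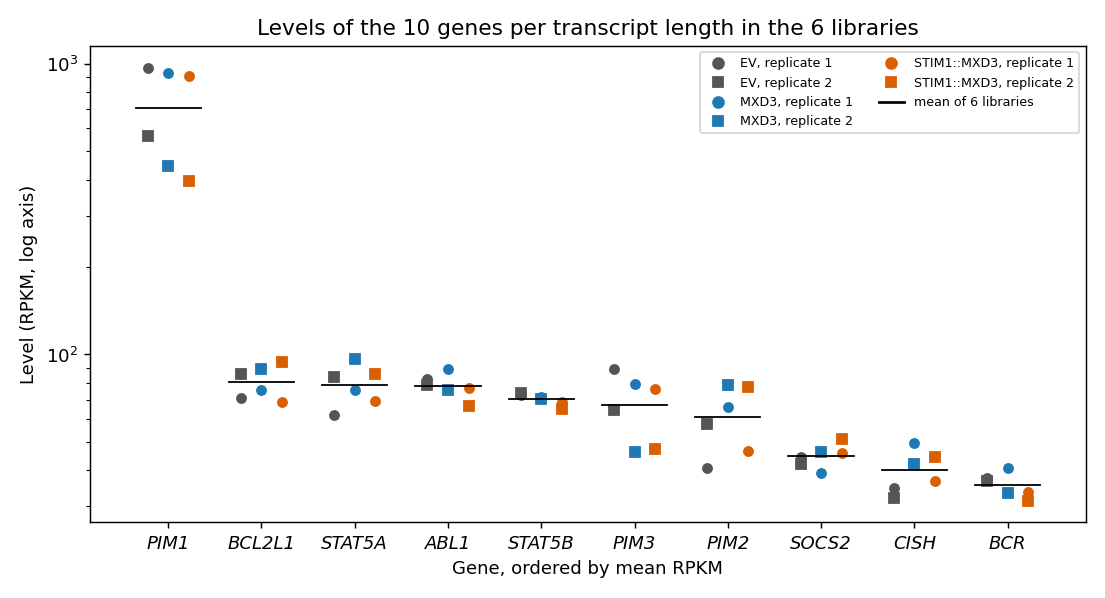
Level of each gene in RPKM on a log axis, in order of the mean over 6 libraries (black line), with circles for replicate 1 and squares for replicate 2 of EV, MXD3 and STIM1::MXD3. PIM1 lies at 396 to 971 RPKM with its 3 replicate 1 libraries at the top, and all other genes lie under 100 RPKM.

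The plasmid comparisons asked whether MXD3 or its fusion to STIM1 altered RNA levels. In the fit without a block for the replicate number, edgeR called 0 of the 10 members in STIM1::MXD3 against EV. It also called 0 in MXD3 against EV and 0 in STIM1::MXD3 against MXD3, and the DESeq2 Wald test called 0 in each. With the block, PIM2 passed in MXD3 against EV, as given below. Few genes were called at all, with 0.00648% of the genes tested in STIM1::MXD3 against EV, 0.00648% in MXD3 against EV and 0% in STIM1::MXD3 against MXD3 (1, 1 and 0 genes, and 3, 3 and 1 with DESeq2). In bulk RNA such as this, fewer cells of a kind and less RNA per cell cannot be told apart. At an unadjusted p under 0.05, 0 members stood in STIM1::MXD3 against EV (background 0.953% of all genes), 1 in MXD3 against EV, which was CISH (1.86%), and 0 in STIM1::MXD3 against MXD3 (1.01%). The median log2 fold change of the 10 members was -0.04 for STIM1::MXD3 against EV, 0.02 for MXD3 against EV and -0.12 for STIM1::MXD3 against MXD3, beside 0.0096, 0.0011 and 0.0083 over all genes tested. The largest distances from 0 were those of PIM2 in MXD3 against EV (0.55) and of CISH in the same comparison (0.46).

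More members were called between the replicate numbers than between plasmids, as was also so over all genes tested. The replicate comparison set 3 libraries against 3 and took the group into account. A plasmid comparison set 2 against 2, and without the block the difference between replicate numbers stayed in its spread. Between replicate 2 and replicate 1, with the group as covariate, edgeR called 5 of the 10 members, beside 29.2% of all genes tested. PIM1 and PIM3 were lower in replicate 2, and STAT5A, PIM2 and BCL2L1 were higher. The remaining members, namely BCR, ABL1, STAT5B, SOCS2 and CISH, did not pass. At an unadjusted p under 0.05 there were 6 members, ABL1 being added, beside 39.8% of all genes. DESeq2 likewise called 5 members, beside 25 of the 78 tested genes of the pathway lists below. The share of all genes that DESeq2 called is not given here. The labels say nothing of what the number stands for, so what same-numbered libraries share cannot be told from it. Library totals of the numbers overlapped, while the TMM factor was 0.960 to 1.01 in replicate 1 and 1.02 to 1.03 in replicate 2. Of the 12 erythroid markers of the line, 8 were lower in all replicate 2 than in all replicate 1 libraries. Of the rest, 0 were higher and 4 (GATA1, TAL1, CD36 and EPOR) overlapped. Over all genes tested, 38.6% did not overlap between the numbers, counting both directions. KLF1 was at 324 to 335 CPM in replicate 1 and 206 to 260.3 CPM in replicate 2, and HBG1 at 364 to 392 CPM and 205 to 244 CPM. The summed level of the 12 markers was 8927 to 10042 CPM and 7224 to 8092 CPM. Their part in the differences of the members was not tested.

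**Figure D2:**
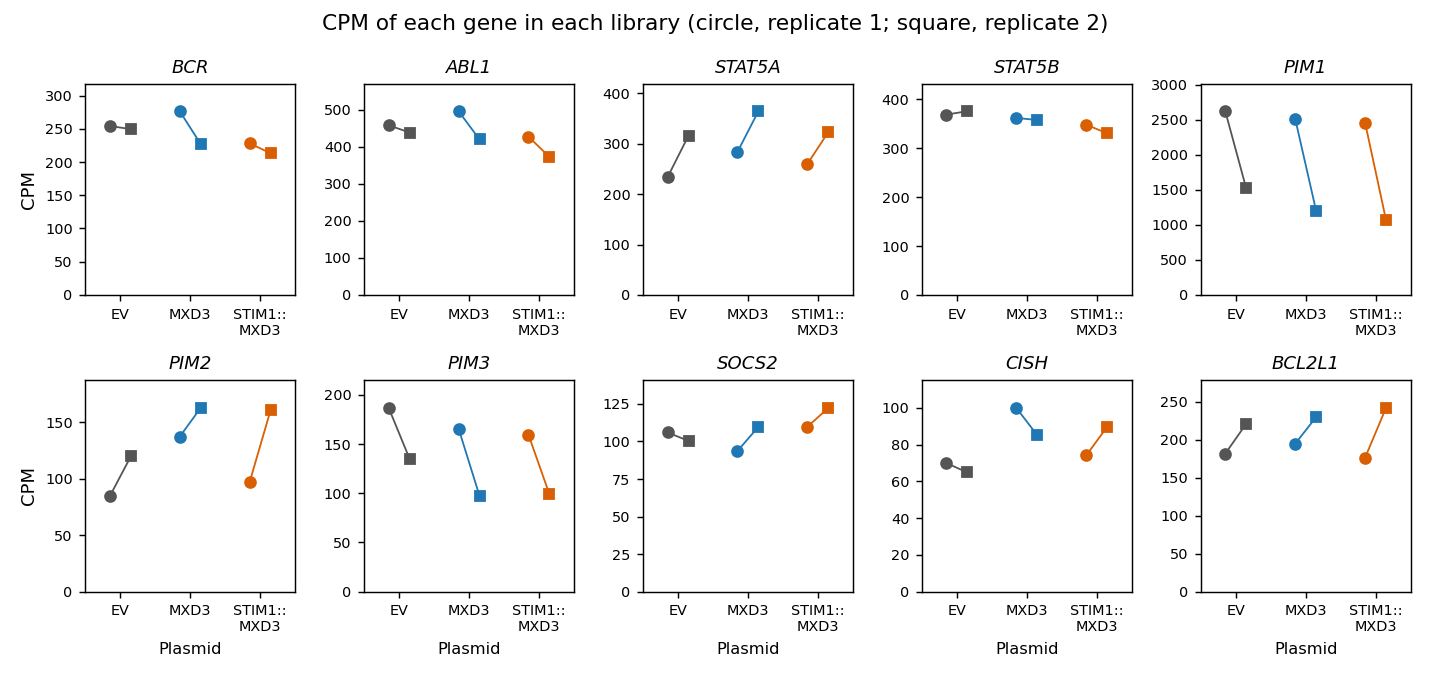
CPM of each gene in the 6 libraries on axes that start at 0, with EV, MXD3 and STIM1::MXD3 from left to right, circles for replicate 1, squares for replicate 2 and a line joining the libraries of a group. The squares of PIM1 and PIM3 lie below the circles and those of STAT5A, PIM2 and BCL2L1 above them in all 3 groups.

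Since the same numbers recur in every group, each plasmid comparison was also fitted with the replicate number as a block. With the block edgeR called PIM2 in MXD3 against EV, and no other member in any comparison. All-gene shares past the threshold with the block were 0.0194% in STIM1::MXD3 against EV, 0.292% in MXD3 against EV and 0.00648% in STIM1::MXD3 against MXD3 (3, 45 and 1 genes). At an unadjusted p under 0.05 the blocked fit held 5 members in STIM1::MXD3 against EV, where BCR, PIM1 and PIM3 were lower and PIM2 and CISH higher (background 8.5%). It held 5 members in MXD3 against EV, where PIM1 and PIM3 were lower and STAT5A, PIM2 and CISH higher (13.9%). In STIM1::MXD3 against MXD3 it held 3, with BCR, ABL1 and PIM2 lower (6.49%). Except for PIM2 in MXD3 against EV, none of these passed the adjustment over all genes. Both plasmid comparisons with EV share the same EV libraries, so like directions in them are not independent.

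**Figure D3:**
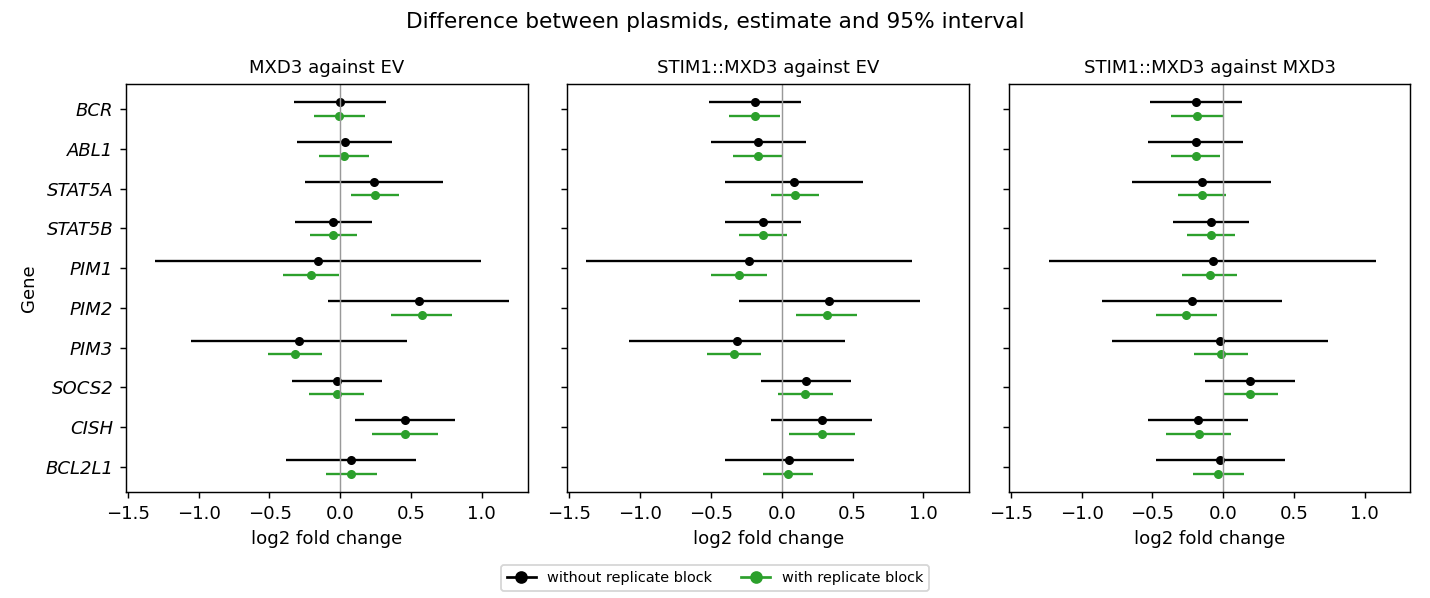
Log2 fold change of each gene with its 95% confidence interval in the 3 plasmid comparisons, without (black) and with (green) the replicate number as a block. Without the block the interval of PIM1 reaches from -1.31 to 1.00 in MXD3 against EV and shrinks to -0.40 to -0.0072 with it, and PIM2 in MXD3 against EV has the highest estimate.

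BCR (Gene ID 613, chromosome 22, 23521891 to 23660224, plus strand, GRCh37) supplies the front of the fusion protein, including the segment that lets it oligomerise. Its level was 254 and 249 CPM in EV, 276 and 227 CPM in MXD3, and 228 and 213 CPM in STIM1::MXD3. Both STIM1::MXD3 libraries were below both EV libraries, while the MXD3 libraries lay on either side of them. In STIM1::MXD3 against EV the log2 fold change was -0.19 ± 0.14 (SE; 95% confidence interval -0.52 to 0.13, adjusted p = 1.00, edgeR). It was -0.00021 ± 0.14 in MXD3 against EV. BCR has pseudogene copies, so reads of such copies may have been counted with it or lost. Its gene span, introns included, overlaps that of FBXW4P1 over 2239 bases on the same strand.

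ABL1 (Gene ID 25, chromosome 9, 133588430 to 133763062, plus strand) supplies the tyrosine kinase. It was at 458 and 438 CPM in EV, 496 and 419 CPM in MXD3, and 427 and 372 CPM in STIM1::MXD3. As with BCR, the MXD3 libraries enclosed the EV libraries and both STIM1::MXD3 libraries were below EV. The log2 fold change was -0.16 ± 0.14 in STIM1::MXD3 against EV (95% confidence interval -0.50 to 0.17), 0.03 ± 0.14 in MXD3 against EV and -0.20 ± 0.14 in STIM1::MXD3 against MXD3. Per length, ABL1 exceeded BCR by a near constant factor, between 2.12 and 2.28 in the 6 libraries. With merged exon lengths the factor was 3.06 to 3.28, so its size rests on the transcript model. Over the 6 libraries the log2 CPM of ABL1 and BCR had a Pearson r of 0.96, given as a description of libraries that share replicate numbers. Which part of either level came from the fusion transcript was not measured.

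STAT5A (Gene ID 6776, chromosome 17, 40439565 to 40463961, plus strand) and STAT5B (Gene ID 6777, chromosome 17, 40351194 to 40440651, minus strand) encode closely related transcription factors from neighbouring genes. STAT5A was at 234 and 316 CPM in EV, 284 and 365 CPM in MXD3, and 259.9 and 323 CPM in STIM1::MXD3. In each group replicate 2 was the higher library, and the lowest replicate 2 library, at 316 CPM, was above the highest replicate 1 library, at 284 CPM. The log2 difference between replicate 2 and replicate 1 was 0.37 ± 0.07 (SE; 1.29-fold, adjusted p = 0.00065, edgeR). The log2 fold change in MXD3 against EV was 0.24 ± 0.21, with both pairs of same-numbered libraries higher in MXD3. With the block it was 0.24 ± 0.08 (adjusted p = 0.187).

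STAT5B, by contrast, had the smallest SD of the 10 genes in RPKM. It was at 368 and 375 CPM in EV, 362 and 357 CPM in MXD3, and 348 and 329.9 CPM in STIM1::MXD3. The 3 groups did not overlap, EV being the highest and STIM1::MXD3 the lowest, over a distance of 375 to 329.9 CPM. None of these steps passed the test, with log2 fold changes of -0.13 ± 0.11 in STIM1::MXD3 against EV, -0.05 ± 0.11 in MXD3 against EV and -0.08 ± 0.11 in STIM1::MXD3 against MXD3. The log2 difference of replicate 2 minus replicate 1 was -0.02 ± 0.06 (adjusted p = 0.832). The RPKM of STAT5A divided by that of STAT5B was therefore higher in every replicate 2 library, at 0.85 and 1.14 in EV, 1.06 and 1.37 in MXD3, and 1.01 and 1.32 in STIM1::MXD3. The gene spans of the pair overlap over 1087 bases on opposite strands, and the genes share long stretches of sequence. Whether counting used strand was not stated, so reads may be divided between them imperfectly.

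PIM1 (Gene ID 5292, chromosome 6, 37137928 to 37143204, plus strand) encodes a survival kinase and is a well-known STAT5 target in haematopoietic cells. It was at 2625 and 1521 CPM in EV, 2518 and 1202 CPM in MXD3, and 2461 and 1071 CPM in STIM1::MXD3. The 3 replicate 1 libraries lay within 2461 to 2625 CPM and the 3 replicate 2 libraries within 1071 to 1521 CPM, so the numbers did not overlap while the plasmid groups did. Replicate 2 was lower by 1.02 ± 0.08 on the log2 scale (2.03-fold, adjusted p = 1.1e-06, edgeR; log2 difference -1.02). Within the groups the log2 difference was -0.79 in EV, -1.07 in MXD3 and -1.20 in STIM1::MXD3. Of all genes tested, 1.78% were as far down or further, and 5.58% were as far from 0 or further in either direction.

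Against that spread the plasmid differences of PIM1 were small. The log2 fold change was -0.16 ± 0.49 in MXD3 against EV and -0.23 ± 0.49 in STIM1::MXD3 against EV, and the second interval ran from -1.39 to 0.92, so a change of over 2-fold in the downward direction could not be told from none. Among same-numbered libraries PIM1 was lower than EV in both pairs with either plasmid, by 0.06 and 0.34 with MXD3 and by 0.09 and 0.51 with STIM1::MXD3 on the log2 scale (log2 differences -0.06, -0.34, -0.09 and -0.51). The blocked estimate was -0.21 ± 0.09 for MXD3 (adjusted p = 0.346) and -0.30 ± 0.09 for STIM1::MXD3 (adjusted p = 0.447). In the fit without the block, leaving out EV replicate 1 set EV replicate 2 alone against libraries of both numbers, and the estimates were then 0.29 for MXD3 and 0.22 for STIM1::MXD3.

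PIM2 (Gene ID 11040, chromosome X, 48770459 to 48776301, minus strand) encodes a kinase of the same family. It was at 84.4 and 119.5 CPM in EV, 137 and 162 CPM in MXD3, and 96.7 and 160.4 CPM in STIM1::MXD3. Both MXD3 libraries exceeded both EV libraries, and the STIM1::MXD3 libraries overlapped with each of the other groups. In MXD3 against EV the log2 fold change was 0.55 ± 0.27 (SE; 1.47-fold, 95% confidence interval -0.09 to 1.19, adjusted p = 0.999), which is not past the threshold. With the replicate block it was 0.58 ± 0.10 (adjusted p = 0.0348, edgeR), past the threshold, with same-numbered differences of 0.70 and 0.44. The DESeq2 block gave 0.57 (adjusted p = 0.00056). Without the block, the value was 0.33 when EV replicate 1 was left out and 0.83 when EV replicate 2 was left out. Against MXD3, STIM1::MXD3 differed by -0.22 ± 0.27, and with the block by -0.26 ± 0.10 (adjusted p = 0.703).

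PIM2 also differed between the replicate numbers, in the direction opposite to PIM1. Replicate 2 was higher by 0.49 ± 0.08 on the log2 scale (1.41-fold, adjusted p = 0.00047). The gap was 0.50 in EV, 0.25 in MXD3 and 0.73 in STIM1::MXD3. Because the MXD3 replicate 1 library, at 137 CPM, exceeded the EV replicate 2 library, at 119.5 CPM, the ranges of the numbers overlapped.

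PIM3 (Gene ID 415116, chromosome 22, 50354416 to 50357720, plus strand), the third kinase gene, differed between the replicate numbers in the direction of PIM1. It was at 187 and 135 CPM in EV, 166 and 97.3 CPM in MXD3, and 159.5 and 99.0 CPM in STIM1::MXD3. All 3 replicate 2 libraries were below all 3 replicate 1 libraries, and the log2 difference was -0.64 ± 0.07 (SE; 1.56-fold lower, adjusted p = 2.5e-05). The plasmid differences against EV were -0.29 ± 0.32 for MXD3 and -0.32 ± 0.32 for STIM1::MXD3. With the block they were -0.32 ± 0.09 (adjusted p = 0.132) and -0.34 ± 0.09 (adjusted p = 0.368). Over the 6 libraries the log2 CPM of PIM3 had a Pearson r of 0.97 with PIM1 and of -0.85 with PIM2, a description of 6 points that share their replicate numbers.

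Taken by share of the family, PIM1 supplied most PIM RNA per length everywhere. It made up 88.2% and 82.2% of the summed PIM RPKM in EV, 86.5% and 78.1% in MXD3, and 88.1% and 76.1% in STIM1::MXD3. The PIM2 share was 3.69% and 8.42% in EV, 6.13% and 13.8% in MXD3, and 4.51% and 14.9% in STIM1::MXD3. The PIM2 share was thus larger in replicate 2 of every group, and larger with either plasmid than in the EV library of the same number. The family sum itself was 1101 and 685 RPKM in EV, 1076 and 569 in MXD3, and 1033 and 521 in STIM1::MXD3. The shares were not tested, and a lower PIM1 level alone enlarges the PIM2 share.

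**Figure D4:**
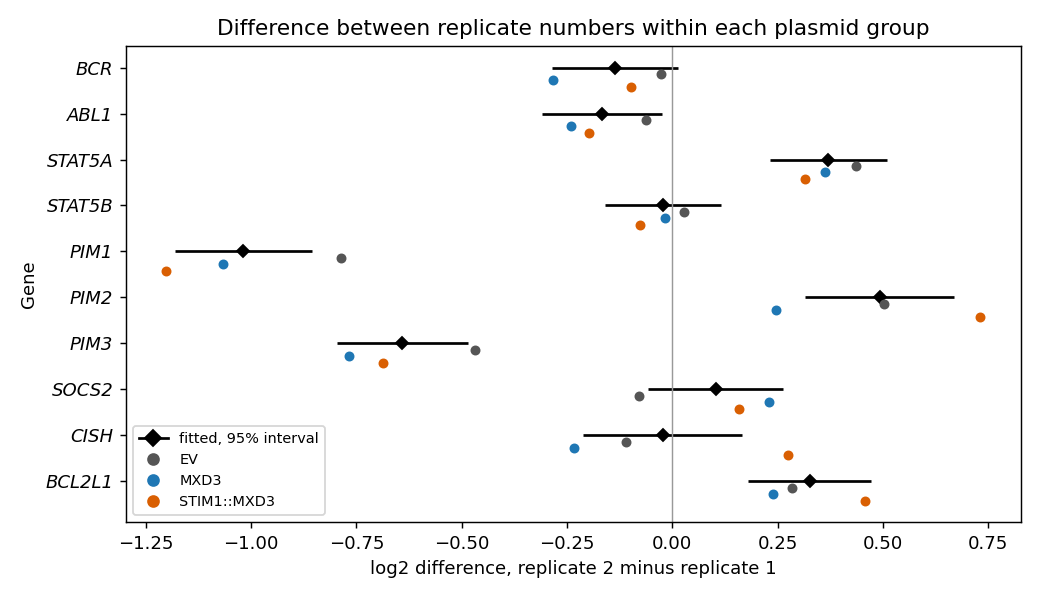
Log2 difference of replicate 2 minus replicate 1 for each gene, with the fitted value and its 95% confidence interval as a black diamond and line and the EV, MXD3 and STIM1::MXD3 groups as coloured points. PIM1 at -1.02 and PIM3 at -0.64 lie to the left of 0 in all 3 groups, and PIM2 at 0.49, STAT5A at 0.37 and BCL2L1 at 0.33 lie to the right.

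SOCS2 (Gene ID 8835, chromosome 12, 93963590 to 93977263, plus strand) encodes a feedback inhibitor that acts on growth hormone and cytokine receptors. It was at 106 and 100.4 CPM in EV, 93.6 and 109.8 CPM in MXD3, and 109.7 and 122 CPM in STIM1::MXD3. The MXD3 libraries enclosed those of EV, and both STIM1::MXD3 libraries were above EV, the nearest being 109.7 CPM against 106 CPM. The log2 fold change was 0.17 ± 0.13 in STIM1::MXD3 against EV (95% confidence interval -0.15 to 0.49), -0.02 ± 0.13 in MXD3 against EV and 0.19 ± 0.13 in STIM1::MXD3 against MXD3. Between replicate numbers it was 0.10 ± 0.08 (adjusted p = 0.333). The gene span of SOCS2, introns included, overlaps that of the antisense gene SOCS2-AS1 over 1955 bases. The overlap of their exons was not measured and the use of strand is not known, so their reads may be mixed.

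CISH (Gene ID 1154, chromosome 3, 50643920 to 50649205, minus strand) encodes an inhibitor that binds activated cytokine receptors and is itself a classical STAT5 target. Its promoter is shown because it alone among the 9 members with a window held the palindromic STAT-type motif TTCNNNGAA in the RefSeq window of 250 bases before to 50 bases after the start (GRCh38.p14). The printed stretch runs from base 250 to base 91 before the start, on the minus strand at chr3:50611865-50612024, and the capitals mark the 4 motif matches.

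CISH promoter: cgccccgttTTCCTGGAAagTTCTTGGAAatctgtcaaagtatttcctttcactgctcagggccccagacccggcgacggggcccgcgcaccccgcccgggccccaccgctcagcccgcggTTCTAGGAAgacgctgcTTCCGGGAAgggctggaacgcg

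The motif reads the same on both strands, so 1 search covered both, and no other motif searched overlaps it. Of 35116 promoter windows of this length, 7.66% held at least 1 match and 7 windows, or 0.0199%, held 4 or more. The other 11 windows of the members, which covered 8 further genes, held 0 matches, and SOCS2 had no entry. The E-box CACGTG, also its own reverse complement, was in 7.26% of all windows and in 0 of the 12 windows of the members. Such matches describe letters in a window and say nothing of binding in these cells.

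CISH was at 69.9 and 64.8 CPM in EV, 99.9 and 85.1 CPM in MXD3, and 74.1 and 89.6 CPM in STIM1::MXD3. All 4 libraries with a plasmid-borne MXD3 or fusion were above both EV libraries, and the MXD3 and STIM1::MXD3 libraries overlapped with each other. In MXD3 against EV the log2 fold change was 0.46 ± 0.15 (SE; 1.37-fold, 95% confidence interval 0.10 to 0.81), with an unadjusted p of 0.0187 and an adjusted p of 0.999 in edgeR. The replicate block left it at 0.46 ± 0.11 (adjusted p = 0.0929), and DESeq2 with the block gave 0.45 (adjusted p = 0.0225). That DESeq2 fit called more of all genes than edgeR with the block did, as given at the end. In STIM1::MXD3 against EV the log2 fold change of CISH was 0.28 ± 0.15, with same-numbered differences of 0.08 and 0.47. Between the replicate numbers the log2 difference of CISH was -0.02 ± 0.09, which did not pass the test. CISH overlaps MAPKAPK3 over 255 bases on the opposite strand, and the effect of this on its counts was not tested.

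BCL2L1 (Gene ID 598, chromosome 20, 30252255 to 30311792, minus strand) was at 182 and 221 CPM in EV, 195 and 229.9 CPM in MXD3, and 176 and 242 CPM in STIM1::MXD3. Each group had its higher library in replicate 2, and the 3 replicate 2 libraries were above all replicate 1 libraries. The log2 difference was 0.33 ± 0.07 (SE; 1.25-fold, adjusted p = 0.0023, edgeR). The plasmid differences were 0.08 ± 0.19 in MXD3 against EV and 0.05 ± 0.19 in STIM1::MXD3 against EV, within an interval of -0.40 to 0.51 for the latter. BCL2L1 is overlapped on the opposite strand by BCL2L1-AS1 and ABALON, and its long and short splice forms, which encode proteins of opposite effect on survival, are not separated in counts per gene.

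Counting libraries alone, the groups did not overlap for 5 of the 10 members in STIM1::MXD3 against EV (SOCS2 and CISH above, BCR, ABL1 and STAT5B below), beside 22% of all genes tested. For MXD3 against EV the count was 3 (PIM2 and CISH above, STAT5B below), beside 31%. Between STIM1::MXD3 and MXD3 only STAT5B did not overlap, beside 21.1%. Between the replicate numbers 4 members did not overlap (PIM1, PIM3, STAT5A and BCL2L1), beside 38.6%, which is close to the share of all genes.

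Other genes of the pathway were read in 7 lists that together hold 90 genes, of which 78 were tested. In the plasmid comparisons edgeR without the block called 0 of the 78 in each, with 0 at an unadjusted p under 0.05 in STIM1::MXD3 against EV (0.953% of all genes), 6 in MXD3 against EV (1.86%) and 0 in STIM1::MXD3 against MXD3 (1.01%), and the DESeq2 Wald test called 0 in each. With the block edgeR called BCL6, a transcriptional repressor and reported STAT5 target, in MXD3 against EV, where 0.292% of all genes were called. DESeq2 with the block called BCL6 and INPP5D in MXD3 against EV and BCL6 in STIM1::MXD3 against EV. That fit also called more of all genes than edgeR with the block did, as given at the end. BCL6 was at 60.1 and 38.6 CPM in EV, 32.5 and 28.7 CPM in MXD3, and 39.8 and 26.0 CPM in STIM1::MXD3. Its log2 fold change in MXD3 against EV was -0.69 ± 0.27 (adjusted p = 0.999), and with the block -0.65 ± 0.12 (adjusted p = 0.044). In replicate 2 against replicate 1 edgeR called 27 of the 78, beside the 29.2% of all genes. The median log2 fold change of a list lay between -0.12 and 0.12 in the plasmid comparisons. Between the numbers it was -0.24 for the inhibitors and -0.11 for the receptors and JAK kinases and lay between -0.01 and 0.05 for the other lists, beside 0.0062 over all genes.

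Among 16 adaptors and partners of BCR-ABL1, the highest levels were those of CRKL, the adaptor whose phosphorylation is read as BCR-ABL1 activity, with 123 ± 8.37 RPKM, and of GAB2 with 52.5 ± 4.99 RPKM. The docking protein genes DOK1 (log2 difference between the replicate numbers 0.51 ± 0.11) and DOK2 (0.50 ± 0.17) were higher in replicate 2, and CBL (-0.43 ± 0.08), a ubiquitin ligase, was lower. GAB2 had the smallest p of the list in STIM1::MXD3 against EV (-0.21 ± 0.12). In MXD3 against EV it was INPP5D, a lipid phosphatase (-0.74 ± 0.30, at a mean of 1.59 RPKM). Neither was past the threshold in edgeR, while DESeq2 with the block called INPP5D in MXD3 against EV.

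Of 16 cytokine receptor and JAK kinase genes, 10 were tested. JAK1 (28.8 ± 2.2 RPKM) and TYK2 (21.7 ± 2.49 RPKM) were the highest. Of these, 2 were called between the replicate numbers, both lower in replicate 2. These were KIT, the stem cell factor receptor, with a log2 difference of -1.44 ± 0.14, and JAK2, the kinase that serves the erythropoietin receptor, with -0.43 ± 0.08. KIT was at 74.8 and 37.3 CPM in EV, 56.5 and 23.4 CPM in MXD3, and 69.7 and 16.6 CPM in STIM1::MXD3. The smallest p-values in the plasmid comparisons belonged to TYK2 in STIM1::MXD3 against EV (-0.27 ± 0.15), EPOR in MXD3 against EV (0.21 ± 0.14) and GHR in STIM1::MXD3 against MXD3 (1.12 ± 0.63, at 0.0483 RPKM), with no call.

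Of the other STAT genes 4 were tested, with STAT3 the highest at 56.9 ± 9.45 RPKM. STAT3 resembled STAT5A in being higher in replicate 2, by 0.39 ± 0.07 on the log2 scale (adjusted p = 0.00078). STAT2 had the smallest p in STIM1::MXD3 against EV (-0.21 ± 0.13), without a call.

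The 14 inhibitors of JAK-STAT signalling were all tested, and PTPN1 (28.9 ± 1.51 RPKM) and SH2B3 (23.0 ± 3.91 RPKM) were the highest. In replicate 2, 2 of them were higher, namely SOCS3 (1.24 ± 0.14) and SH2B3 (0.39 ± 0.08). Another 6 were lower: SOCS1 (-0.97 ± 0.10), PIAS1 (-0.62 ± 0.09), SOCS6 (-0.51 ± 0.11), PIAS4 (-0.39 ± 0.09), SOCS5 (-0.36 ± 0.10) and PTPN2 (-0.31 ± 0.09). Members of the SOCS family thus moved in both directions while SOCS2 and CISH did not pass. SOCS1 was at 34.8 and 15.2 CPM and SOCS3 at 10.7 and 19.3 CPM in EV. The smallest p in MXD3 against EV was that of PTPN6 (-0.82 ± 0.31, at a mean of 1.59 RPKM). In STIM1::MXD3 against EV it was that of SOCS7 (-0.25 ± 0.20, at a mean of 1.66 RPKM), and neither was called.

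Of 13 further reported STAT5 targets 11 were tested, led by TFRC (251 ± 36.0 RPKM) and CCND3 (178 ± 17.6 RPKM). Among those higher in replicate 2 were CCND1 (0.88 ± 0.13), ID1 (0.85 ± 0.12) and MCL1 (0.28 ± 0.07). BCL6 (-0.48 ± 0.10), SKP2 (-0.23 ± 0.08) and CCND3 (-0.22 ± 0.07) were lower. Reported targets, as the PIM genes, did not share 1 direction. BCL2, at 0.37 to 1.57 CPM, had a log2 fold change of 1.38 ± 0.57 in MXD3 against EV and 1.33 ± 0.57 in STIM1::MXD3 against EV, without a call.

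Among PIM kinase substrates 13 of 14 were tested, and the translation regulators EIF4B (334 ± 28.7 RPKM) and EIF4EBP1 (133 ± 17.2 RPKM) were the highest. EIF4EBP1 (0.31 ± 0.07), CDKN1A (0.35 ± 0.11) and NUMA1 (0.23 ± 0.07) were higher in replicate 2 and SKP2 was lower. BAD, which promotes apoptosis until it is phosphorylated, had the smallest p of the list in all 3 plasmid comparisons. It was at 16.7 and 18.2 CPM in EV, 13.0 and 11.1 CPM in MXD3, and 16.7 and 12.8 CPM in STIM1::MXD3. Its log2 fold change in MXD3 against EV was -0.54 ± 0.19 (unadjusted p = 0.0277, adjusted p = 0.999).

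Of 16 other BCL-2 family genes 14 were tested. BAX (56.1 ± 7.46 RPKM) and MCL1 (50.3 ± 5.72 RPKM) were the highest, both below BCL2L1 in mean RPKM on canonical lengths. In replicate 2 MCL1 was higher, as BCL2L1 was. Pro-apoptotic genes went in both directions, with BAX (0.34 ± 0.08) higher and BMF (-0.83 ± 0.11) and BCL2L11 (-0.49 ± 0.08) lower. No other gene of the list was called between the replicate numbers.

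The genes whose log2 CPM over the 6 libraries was most like that of a member were sought among the 10250 genes with a mean of at least 5 CPM. For PIM1 they were PRKD2, SLC30A1 and BSCL2, with a Pearson r of 0.999, 0.999 and 0.998. SLC30A1 was at 62.7 and 34.4 CPM in EV, 62.1 and 25.5 CPM in MXD3, and 62.2 and 23.4 CPM in STIM1::MXD3, so it had the same high replicate 1 and low replicate 2 libraries. For CISH they were MOB1A, ZNF275 and NDN, each with r of 0.99. ZNF275 was lowest in EV (52.1 and 49.1 CPM), while MXD3 (67.9 and 59.1 CPM) and STIM1::MXD3 (55.6 and 60.5 CPM) overlapped. For SOCS2 they were LINC00847 (0.98), CARD19 (0.98) and NIT2 (0.98). These are the top of many genes over 6 libraries that share replicate numbers.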

How the data were processed

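Raw counts per gene, deposited by the authors in 1 table per library under NCBI Gene identifiers, were used for 6 K562 libraries. The submitters' processing notes name HISAT2 2.2.1, featureCounts 2.0.1 and hg19, and the use of strand was not given in the sources used here. Of 25702 identifiers 23696 were matched to a symbol. Identifiers without a symbol held 0.225% to 0.276% of the counts and stayed in library sizes.

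Genes were filtered with filterByExpr, scaled by TMM and tested with the two-sided quasi-likelihood F test of edgeR 4.0.16 (R 4.3.3) in 1 fit over all 6 libraries, with Benjamini-Hochberg adjustment over 15431 genes and a threshold of 0.05. DESeq2 1.42.0 was an alternative. The script was tested on simulated data. RPKM used GENCODE canonical transcript lengths on GRCh37, and log2 CPM a prior count of 2. Promoters came from RefSeq (GRCh38.p14), as the CISH window did, and their coordinates are not those of the counts. Errors are SEs unless marked SD. The SEs and confidence intervals of edgeR use a spread of each gene that is moderated by that of all genes.

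Members and lists were chosen with earlier results of these data known. Named pathway genes were the 2 highest by RPKM per list, those called in any comparison and those with the smallest p in a plasmid comparison. Some genes that this rule names are not reported here.

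The replicate numbers recur in the 3 groups. Across genes, the deviation of a library from the mean of its group correlated with that of the library of like number in another group (r = 0.270, 0.364 and 0.450 over all genes tested and 0.621, 0.707 and 0.792 over 10250 genes of at least 5 CPM, for EV with MXD3, EV with STIM1::MXD3 and MXD3 with STIM1::MXD3), so the numbers were taken to pair the libraries. This comes from the counts, since the labels name no shared batch.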

Additional observations from a re-analysis of the deposited data

How the results depend on the processing

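Each group had 2 libraries, and the fit without the block left 3 residual degrees of freedom. In STIM1::MXD3 against EV the 95% confidence interval of PIM1 ran from -1.39 to 0.92 in that fit. With the block it ran from -0.50 to -0.10. For STAT5B in the same comparison without the block it ran from -0.40 to 0.14, so the width differed between members. These intervals rest on a spread moderated over all genes, so they are not the spread of 1 gene alone, with or without the block. The calls of the 5 members between replicate numbers held under all 11 alternatives, and 0 members were called in STIM1::MXD3 against EV or against MXD3 under all 14. In MXD3 against EV the replicate block gave 1 called member in edgeR (PIM2, log2 fold change 0.58) and 2 in DESeq2 (PIM2, 0.57, and CISH, 0.45), and it changed no other call of a member.

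The genes called numbered 1 with STIM1::MXD3 and 1 with MXD3 when each was set against EV, and 0 between both plasmids. In this order, with DESeq2 they were 3, 3 and 1, with the replicate block in edgeR 3, 45 and 1, and with the block in DESeq2 29, 243 and 11. Without a filter on low counts they were 2, 1 and 1. Leaving out 1 library gave 1 to 2 genes in MXD3 against EV (2 without MXD3 replicate 2). Between the replicate numbers it gave 2580 to 4424 genes beside 4499, with 2580 and 2902 without STIM1::MXD3 replicate 1 and 2.

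Without the block, signs turned for differences that had not passed the test when 1 library was left out. Leaving out a library unbalances the replicate numbers, so that the replicate difference enters the plasmid comparison. In both same-numbered pairs PIM1 and PIM3 were lower than EV with MXD3 and with STIM1::MXD3. In MXD3 against EV the log2 fold changes then ranged from -0.77 to 0.29 for PIM1, 0.33 to 0.83 for PIM2 (no change of sign), -0.71 to 0.035 for PIM3, -0.14 to 0.13 for BCR, -0.082 to 0.14 for ABL1, -0.15 to 0.10 for SOCS2 and -0.058 to 0.23 for BCL2L1. In STIM1::MXD3 against EV they ranged from -0.95 to 0.24 for PIM1, -0.085 to 0.65 for PIM2, -0.12 to 0.32 for STAT5A and -0.20 to 0.27 for BCL2L1. In STIM1::MXD3 against MXD3 they ranged from -0.80 to 0.54 for PIM1, -0.64 to 0.10 for PIM2, -0.41 to 0.39 for PIM3, -0.34 to 0.049 for STAT5A and -0.28 to 0.19 for BCL2L1. Between the replicate numbers CISH ranged from -0.17 to 0.10 and STAT5B from -0.049 to 0.023. BCR in MXD3 against EV, at -0.00021, was 0.00011 with a mean of at least 5 CPM and 0.0026 without a filter, and with that stricter filter the replicate difference was 0.023 for STAT5B and 0.022 for CISH.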
